A study of Mus musculus with 12 samples.

Results

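The histone genes described here are the 41 genes whose symbols begin with H1f, H2a, H2b, H3c, H3f or Macroh2a and that have a transcript cluster of their own on the array, out of 19938 genes measured in that way. A transcript cluster is the set of probes that the platform assigns to one transcript region, and the 41 genes held 43 such clusters. Where a gene had more than one, the cluster with the highest mean was used. The platform symbols alone chose the genes, and no measured difference entered the choice.

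Hippocampal RNA was measured in 6 MSN mice and 6 ICR mice, all adult males of about 10 weeks that received no treatment named in the labels, with one array per mouse. MSN (Madison) is a nearly inbred strain with a manic phenotype, and it was bred by selection from the outbred hsd:ICR stock that served as the control. MSN is therefore a single derived line, and any difference between the strains belongs to that line. The mice were separate animals.

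Histones are the proteins around which DNA is wrapped. The nucleosome core holds H2A, H2B, H3 and H4, while the linker histone H1 binds where DNA enters and leaves the core. Most H1, H2A, H2B and H3 genes are replication-dependent: they are short genes without introns that lie in clusters, they are transcribed mainly as DNA is copied, and their transcripts end in a stem-loop in place of a poly(A) tail. Replacement variants such as H2A.Z, H3.3 and macroH2A are made throughout the cell cycle and are the main source of new histone in cells that no longer divide, such as neurons. A further group is used in sperm or egg.

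Grouped by symbol, the 41 genes comprised 4 H1 genes, 3 H2A genes, 10 H2B genes and 3 H3 genes of the replication-dependent classes, and 21 variants. Of the variants, 10 are somatic and 11 germline. By its symbol H2bc21, which encodes H2BE, was counted with the H2B genes. H2aw, which has also been named as a cluster gene, was counted with the somatic variants. In the RefSeq annotation of GRCm38.p6, 20 of the 41 lay on chromosome 13, where the largest histone cluster of the mouse is found, and the others were spread over further chromosomes, 10 in all. Of the 20, H2bl1 and Macroh2a1 lie far from the others whose promoters are described below. H2bu1-ps and Macroh2a3 are annotated as pseudogenes.

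Promoters were compared because the H2B genes on chromosome 13 differed in the same direction. RefSeq promoters of GRCm38.p6, which run from 250 bases before to 50 bases after the annotated start, were at hand for 35 of the 41 genes. Those of H2bc4, H2bc21, H3c7, H2bu1-ps, H2ax and Macroh2a3 were not analysed here. The octamer ATTTGCAT, a motif known from H2B promoters, was searched on both strands together with CCAAT and with the TATA motif TATAAA. The 250 bases before the start of H2bc8 (chr13:23571150-23571399, plus strand), the H2B gene with the largest fold change, held all of these. Capitals mark the matches, of which ATTGG is CCAAT on the other strand.
H2bc8: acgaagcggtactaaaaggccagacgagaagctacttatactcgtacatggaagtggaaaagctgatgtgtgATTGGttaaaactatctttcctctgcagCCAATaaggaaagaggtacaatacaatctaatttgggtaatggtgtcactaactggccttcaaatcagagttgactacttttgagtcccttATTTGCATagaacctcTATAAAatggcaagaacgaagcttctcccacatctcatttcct

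The octamer was found in 4 of 7 H2B promoters (57.1%) and in 2 of 3 H2A promoters (66.7%), against 1.74% of all 32851 promoters. No H1 promoter (0 of 4) and no H3 promoter (0 of 2) held it. Among the variants it was present in 2 of 11 germline genes, H2bc1 and H2ac1, and in 1 of 8 somatic genes, H2aw. H2ac8 and H2bc8 share a single match, read from opposite strands, and so do H2ac1 and H2bc1. Each shared match is counted for both genes. CCAAT was found in every H1, H2A, H2B and H3 promoter searched, 16 in all, against 37.4% of all promoters. TATAAA was found in 3 of 4 H1, 3 of 3 H2A, 4 of 7 H2B and 1 of 2 H3 promoters, against 13.6% of all promoters. H2ac8 and H2bc8 share their CCAAT and TATAAA matches as well, and the TATAAA of H2ac15 begins 21 bases after the start. A match is a description of the letters and does not show that a factor binds there.

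The windows show the octamer of each H2B gene in capitals with 12 bases on each side, which allows the flanks to be compared between the chromosome 13 genes and H2bc18 on chromosome 3, whose difference did not pass the test. H2bc22 and H2bc9 had no exact match. For these a relaxed form, ATTTGNAT, is shown, which was chosen after the sequences were seen and which occurred in 6 of 7 H2B promoters and in 4.36% of all promoters.
H2bc8: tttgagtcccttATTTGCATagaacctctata
H2bc3: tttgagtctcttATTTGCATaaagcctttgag
H2bc14: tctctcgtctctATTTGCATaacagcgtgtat
H2bc22: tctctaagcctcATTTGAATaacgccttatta
H2bc9: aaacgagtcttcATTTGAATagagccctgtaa
H2bc18: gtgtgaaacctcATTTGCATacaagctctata

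The octamer began 59 bases before the start of H2bc8, 90 before that of H2bc3, 25 before that of H2bc14 and 48 before that of H2bc18. H2bc8 shares its promoter with the H2A gene H2ac8, which is transcribed in the other direction, and their annotated promoters overlapped by 279 bases. H2bc1 and H2ac1, the testis H2B and H2A, formed a second such pair with 220 shared bases. The motif was therefore present in H2B genes that were higher in MSN mice at an unadjusted p under 0.05. It was also present in genes that were not, such as H2bc18 and H2ac4. The match of H2ac1, which was not higher, is the one it shares with H2bc1, which was.

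**Figure D1:**
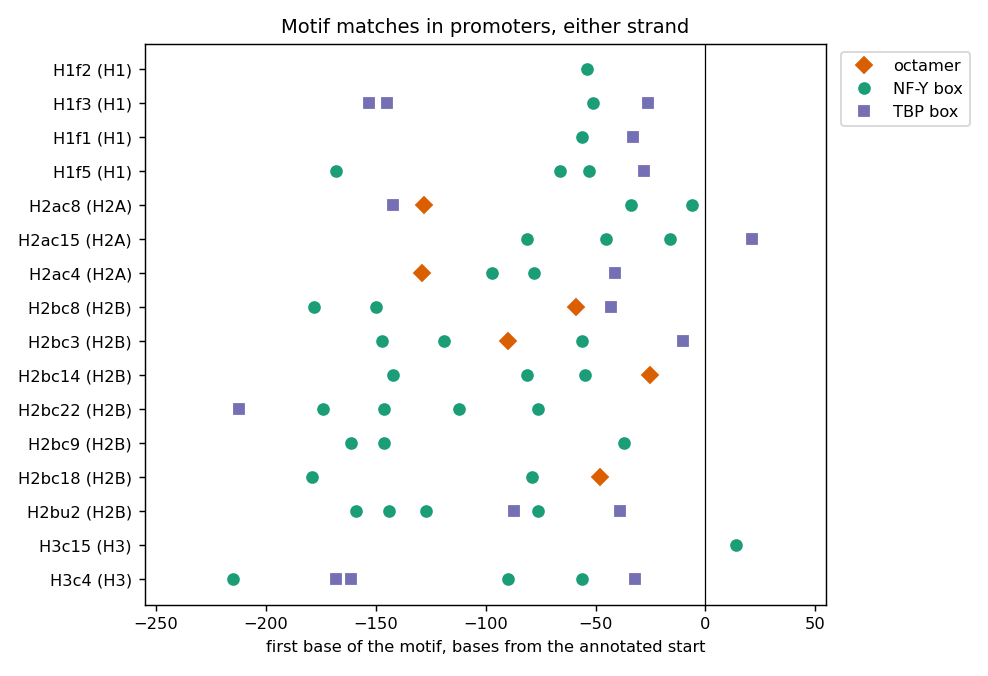
Positions of motif matches in the promoters of the replication-dependent H1, H2A, H2B and H3 genes. The horizontal axis gives the first base of each match in bases from the annotated start (line at 0), each row is a gene, diamonds are the octamer, circles CCAAT (labelled NF-Y box, after the factor known to bind it) and squares the TATA motif (labelled TBP box). Octamers are seen in 2 H2A and 4 H2B rows and in no H1 or H3 row. The octamers in the H2ac8 and H2bc8 rows are the same bases, and so are their CCAAT and TATA matches.

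The strains were compared for each cluster with limma on log2(intensity + 16), with p-values adjusted by the Benjamini-Hochberg method over all 23410 clusters that have a gene. Clusters with an adjusted p under 0.05 are termed called. All fold changes are log2 differences of MSN over ICR on this scale, and the added 16 makes those of dim genes too small. Intensities of different clusters depend on their probes and are not compared with each other as expression levels. Of all clusters, 182 were called, 71 higher and 111 lower in MSN mice. That split turned to 131 higher and 109 lower after quantile normalization and to 115 and 89 with all arrays brought to one median. Array medians ranged from 270.2 to 298. Pairs of arrays from one strain correlated at 0.992 to 0.997, and pairs from different strains at 0.992 to 0.996. The neuronal markers, 8 of 8 measured, were bright on every array, with summed intensities of 49746 to 52862 in MSN mice and 48672 to 52725 in ICR mice.

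Of the 41 genes, H2bc8, a replication-dependent H2B gene, was called higher in MSN mice and Macroh2a2, which encodes macroH2A2, was called lower. Every measured H2B gene on chromosome 13 was higher at an unadjusted p under 0.05, a grouping made after the values were known. At that level 6 of all 10 H2B, 2 of 4 H1, 1 of 3 H2A and 1 of 3 H3 genes were higher and 0 lower. Of the 21 variants, 3 were higher and 3 lower. The background of calls over all clusters was 0.303% higher and 0.474% lower. At an unadjusted p under 0.05, 13 of the 41 genes (31.7%) were higher in MSN mice, against 5.18% of all clusters. At the same level 3 genes (7.32%) were lower, against 7.5%. Of the 13, 11 were on chromosome 13. Neighbouring and near-identical genes are not independent, and these shares were not tested. The strains did not overlap for H1f2, higher in MSN mice, and for Macroh2a2, lower in MSN mice, where 0.568% and 0.867% of all clusters separated the strains in these directions. The median fold change was 0.046 over the 41 genes and -0.0079 over all clusters. In whole hippocampus, a change in the share of cells that express a gene and a change in RNA per cell cannot be told apart.

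**Figure D2:**
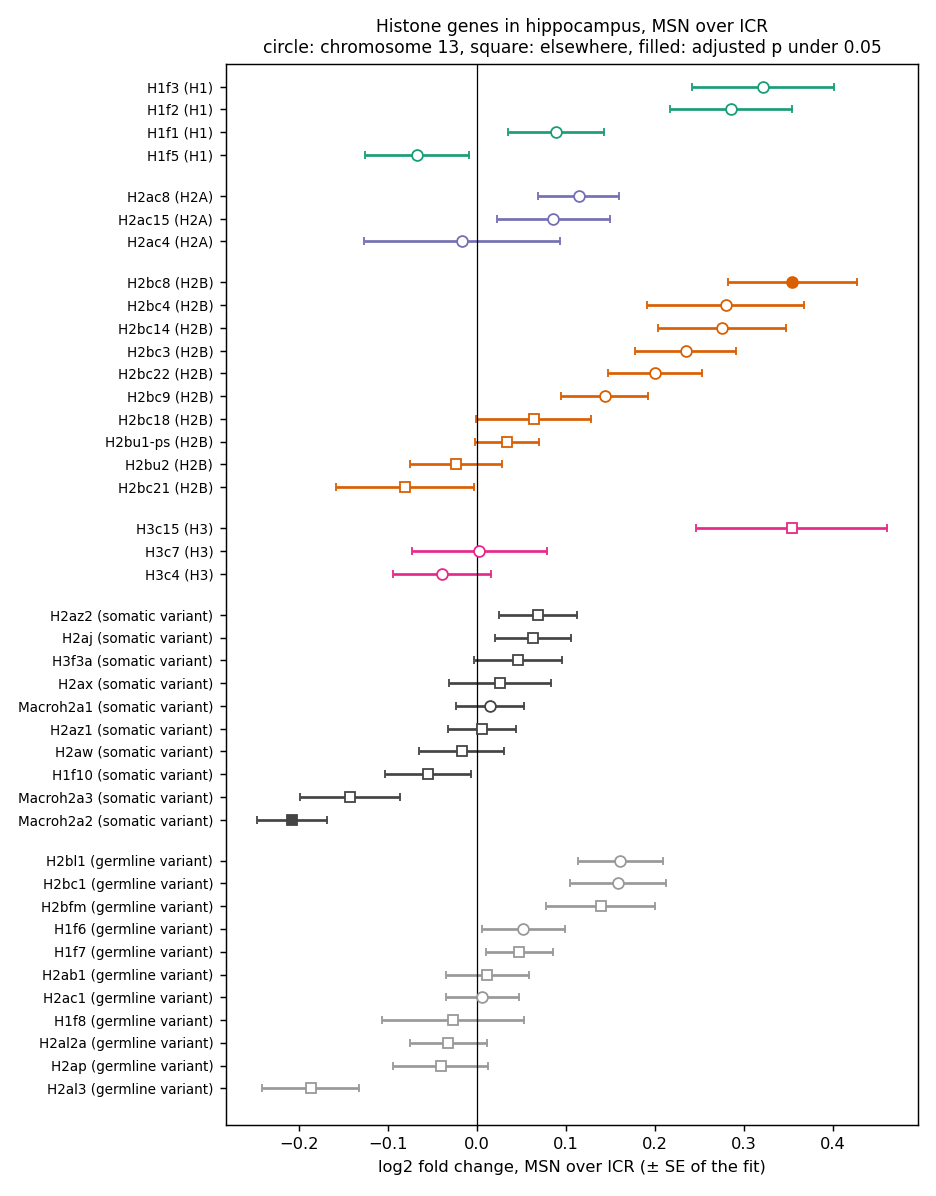
Log2 fold change of MSN over ICR for the 41 histone genes, grouped by class, with bars for the SE of the limma fit (n = 6 mice per strain). Circles are genes on chromosome 13, squares genes elsewhere, and filled symbols passed the adjusted threshold. The 6 H2B genes on chromosome 13 lie between 0.14 and 0.35, and the 4 H2B genes elsewhere between -0.081 and 0.064.

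The H2B genes had a median fold change of 0.17 over 10 genes, and 6 of the 10 were higher in MSN mice at an unadjusted p under 0.05, with 1 called. The 6 were H2bc8, H2bc3, H2bc14, H2bc22, H2bc4 and H2bc9, which are all of the replication-dependent H2B genes on chromosome 13 that were measured alone.

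H2bc8 had intensities with a lowest, median and highest value of 329, 363 and 385 in MSN mice, against 246, 270.4 and 334 in ICR mice. The strains overlapped, because ICR replicate 2 lay above MSN replicate 2, the lowest MSN array. The mean was 363 ± 21.1 in MSN mice and 282 ± 37.6 in ICR mice (SD, n = 6 each), a fold change of 0.35 ± 0.072 (SE) with an adjusted p of 0.0378 in limma. The call was kept in 5 of 6 other settings and was lost on untransformed intensities (adjusted p = 0.0578). It was also kept in 3 of the 12 fits that left out an array, those without MSN replicate 2, ICR replicate 1 or ICR replicate 2, and over all 12 the adjusted p ranged from 0.0138 to 0.0957.

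H2bc3 had intensities of 669, 685 and 712 (lowest, median, highest) in MSN mice, against 539, 566 and 707 in ICR mice. Here too ICR replicate 2 stood alone among the ICR arrays within the MSN range, and the next ICR array was at 590.5. The fold change was 0.23 ± 0.057 (SE) with an adjusted p of 0.0783 in limma, and the gene was called in 4 of 7 other settings, which were quantile normalization, one median for all arrays, a trended and robust eBayes fit and bright clusters alone.

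H2bc14 had 555, 580 and 621 in MSN mice, against 430, 465 and 599 in ICR mice (lowest, median, highest intensity). Its fold change was 0.28 ± 0.072 (SE, adjusted p = 0.105 in limma). H2bc22 had 187, 204 and 219 in MSN mice, against 154, 175 and 196 in ICR mice, with a fold change of 0.20 ± 0.053 (SE, adjusted p = 0.107 in limma). In both genes ICR replicate 2 was again the sole ICR array above the lowest MSN array.

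H2bc4 had intensities (lowest, median, highest) of 1732, 2174 and 2362 in MSN mice, against 1437, 1756 and 2004 in ICR mice. Its fold change was 0.28 ± 0.088 (SE, adjusted p = 0.186 in limma). H2bc9 had 727, 780 and 838 in MSN mice, against 650.4, 700.1 and 770 in ICR mice, with a fold change of 0.14 ± 0.049 (SE, adjusted p = 0.223 in limma). In these genes the strains overlapped on several arrays.

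**Figure D3:**
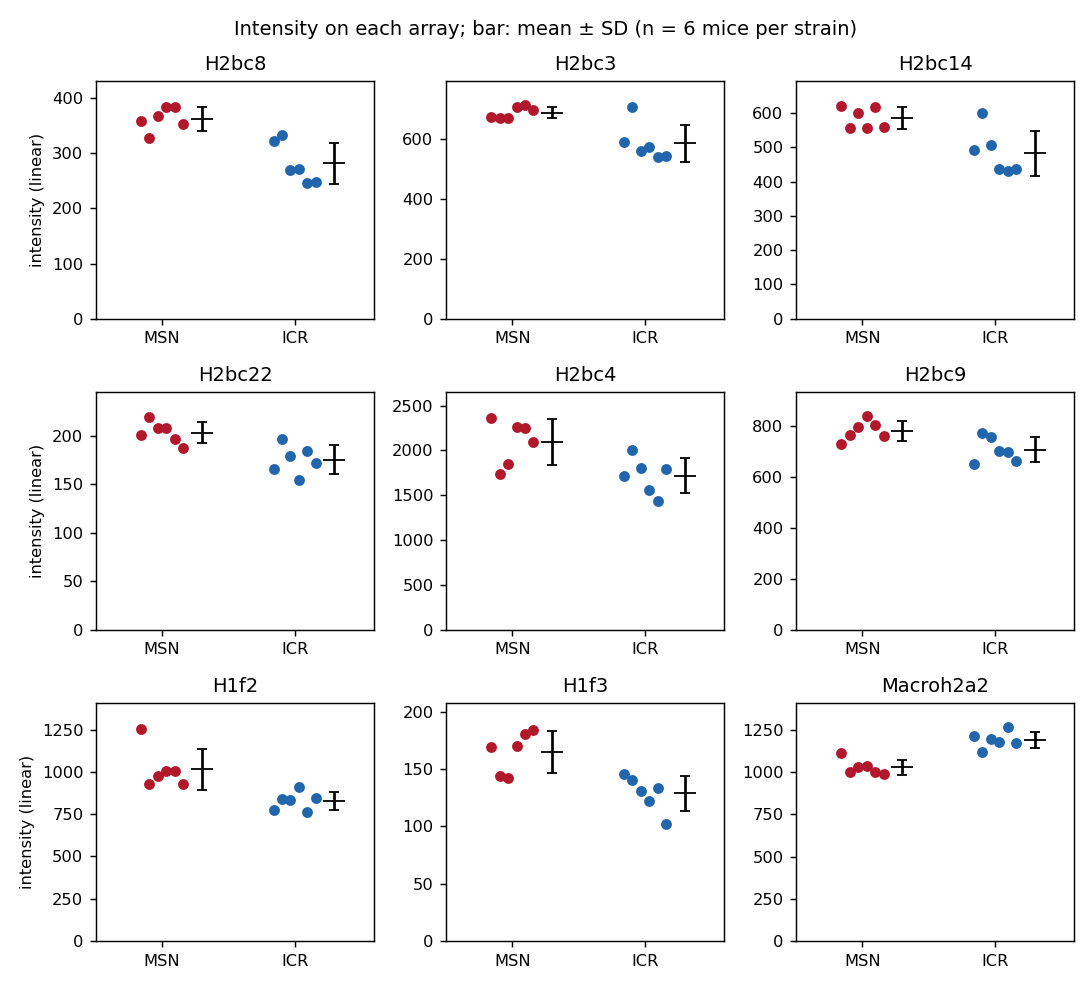
Linear intensity on each of the 12 arrays (points, in order of replicate number) with mean ± SD (n = 6 mice per strain) for the 6 H2B genes of chromosome 13, for H1f2 and H1f3 and for Macroh2a2, with MSN left of ICR and axes from 0. MSN arrays lie higher in the first 8 panels, with overlap in all but H1f2, and lower without overlap in Macroh2a2 (992 to 1112 in MSN mice, 1117 to 1266 in ICR mice).

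The same arrays were often the extremes in several H2B genes. ICR replicate 2 was the highest ICR array in 6 of the 10 genes and ICR replicate 5 the lowest in 5, while MSN replicate 2 was the lowest MSN array in 6. Without ICR replicate 2, H2bc3, H2bc8 and H2bc14 were called higher in MSN mice (adjusted p = 0.0037, 0.0138 and 0.0138 in limma), and the strains did not overlap in 6 of the 41 genes, H2bc3, H2bc8, H2bc14, H2bc22, H2bc1 and H1f2. Over all clusters, 0.380% were called higher and 1.04% lay higher without overlap in that fit. It was the one fit of the 12 without an array in which H2bc3 or H2bc14 was called, and the adjusted p over the 12 reached 0.172 for H2bc3 and 0.211 for H2bc14. Because ICR replicate 2 was left out after its values were seen, the lack of overlap follows in part from that choice. The H2B genes on chromosome 13 also varied less between MSN mice than between ICR mice, with a median SD on the log2 scale of 0.074 in MSN mice and 0.15 in ICR mice. The SD was larger in ICR mice in 5 of these 6 genes and in 16 of the 20 histone genes on chromosome 13 (80%), against 50.5% of all genes.

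**Figure D4:**
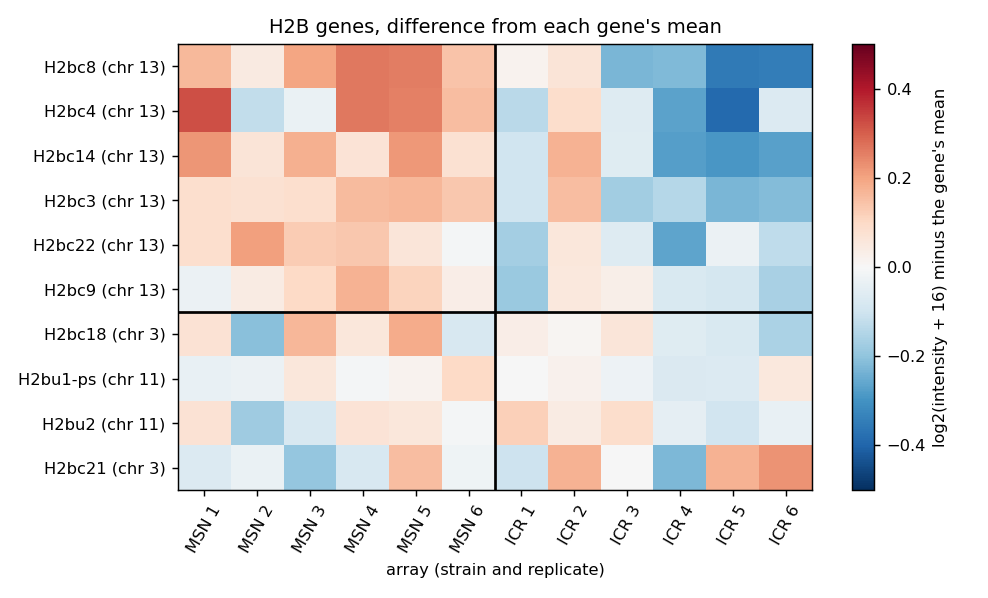
Difference of log2(intensity + 16) from each gene's mean over the 12 arrays for the 10 H2B genes (rows), with MSN arrays left of the line and ICR arrays right of it. The upper 6 rows are genes on chromosome 13, mostly above their mean (red) in MSN mice and below it (blue) in ICR mice except in ICR replicate 2, and the lower 4 rows, on chromosomes 3 and 11, show no such division.

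The other 4 H2B genes did not pass the test. H2bc18 and H2bc21 lie in a smaller histone cluster on chromosome 3, and H2bc21 encodes H2BE, known from mouse olfactory neurons. H2bc18 averaged 273 ± 29.5 in MSN mice and 259.9 ± 15.4 in ICR mice, and H2bc21 averaged 245 ± 20.8 in MSN mice and 261 ± 33.6 in ICR mice (SD, n = 6 each). The fold changes were 0.064 for H2bc18, -0.081 for H2bc21, -0.024 for H2bu2 and 0.033 for the pseudogene H2bu1-ps, with adjusted p from 0.716 to 0.888 in limma. The division of the H2B genes by chromosome was made after their values were known and was not tested. It also mixes location with kind of gene, since the pseudogene and the H2BE gene both lie outside chromosome 13.

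A further 7 clusters that the platform assigns to H2B genes list 14 to 15 genes each and were left out of the gene counts. Their fold changes were 0.29 to 0.33, with adjusted p from 0.0569 to 0.0699 in limma, so none was called. The brightest of them ranged from 2625 to 3029.9 in MSN mice and from 1912 to 2691 in ICR mice. In all of these clusters ICR replicate 2 was the highest ICR array and ICR replicate 5 the lowest, and 2 of the clusters held identical values. The coding sequences of H2B genes are nearly identical, so a single-gene cluster may also read transcripts of other copies, and which copy gave the signal is uncertain for every replication-dependent gene described here.

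Of the 4 H1 genes, all on chromosome 13, H1f2 and H1f3 were higher in MSN mice at an unadjusted p under 0.05 and none was called, and the class median was 0.19. H1f2, which encodes H1.2, had 927, 990.2 and 1254 in MSN mice, against 766, 836 and 909 in ICR mice (lowest, median, highest intensity). Every MSN array was above every ICR array, the smallest p that an exact two-sided permutation test of 6 against 6 can give (0.00216). Its fold change was 0.29 ± 0.068 (SE) with an adjusted p of 0.0711 in limma, and it was called in 4 of 7 other settings, with adjusted p from 0.0406 to 0.137. MSN replicate 1, at 1254, stood apart from the other MSN arrays, and without it the adjusted p was 0.0599.

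H1f3, which encodes H1.3, was a dim cluster with 142, 169 and 184 in MSN mice, against 102, 132 and 146 in ICR mice. The fold change of 0.32 ± 0.079 (SE) had an adjusted p of 0.0828 in limma, and the strains overlapped. H1f1 averaged 492 ± 28.0 in MSN mice and 462 ± 38.2 in ICR mice, and H1f5 averaged 489.7 ± 28.3 in MSN mice and 515 ± 49.2 in ICR mice (SD, n = 6 each). Their fold changes of 0.089 and -0.068 did not pass the test (adjusted p = 0.537 and 0.685 in limma).

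Of the 3 H2A genes none was called, and the class median was 0.086, without a test against the H2B genes. H2ac8, the partner of H2bc8 on the shared promoter, had 261, 279 and 297 in MSN mice, against 241, 254 and 285 in ICR mice, with a fold change of 0.11 ± 0.046 (SE, adjusted p = 0.312 in limma). H2ac15 averaged 1378 ± 52.9 in MSN mice and 1303 ± 147 in ICR mice, and H2ac4 averaged 99.0 ± 5.67 in MSN mice and 102 ± 22.7 in ICR mice (SD, n = 6 each). Both overlapped between the strains, with fold changes of 0.086 and -0.017, and the sign for H2ac4 turned with quantile normalization and with one median for all arrays. The 2 clusters that list 19 to 20 H2A genes had fold changes of 0.0029 and 0.040.

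Of the 3 H3 genes none was called, and the class median was 0.0025. H3c15, on chromosome 3, had 63.3, 92.2 and 115 in MSN mice, against 60.2, 66.9 and 77.6 in ICR mice, a fold change of 0.35 ± 0.11 (SE) with an adjusted p of 0.168 in limma. MSN replicate 2, the lowest MSN array, lay within the ICR range, and without it the gene was called (adjusted p = 0.0461). It was called in no other of the 12 fits without an array, where the adjusted p reached 0.290, and in 0 of 6 other settings. H3c4 averaged 719 ± 26.0 in MSN mice and 741 ± 69.8 in ICR mice, and H3c7 averaged 37.3 ± 7.41 in MSN mice and 36.8 ± 1.08 in ICR mice (SD, n = 6 each). Their fold changes were -0.040 and 0.0025, and the sign for H3c7 turned with a pseudocount of 1. H3c15 and H3c7 were among the 14 histone genes whose mean lay below the lowest array median. The 10 clusters that list 12 H3 genes each had fold changes of 0.064 to 0.13, with adjusted p from 0.436 to 0.719 in limma.

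**Figure D5:**
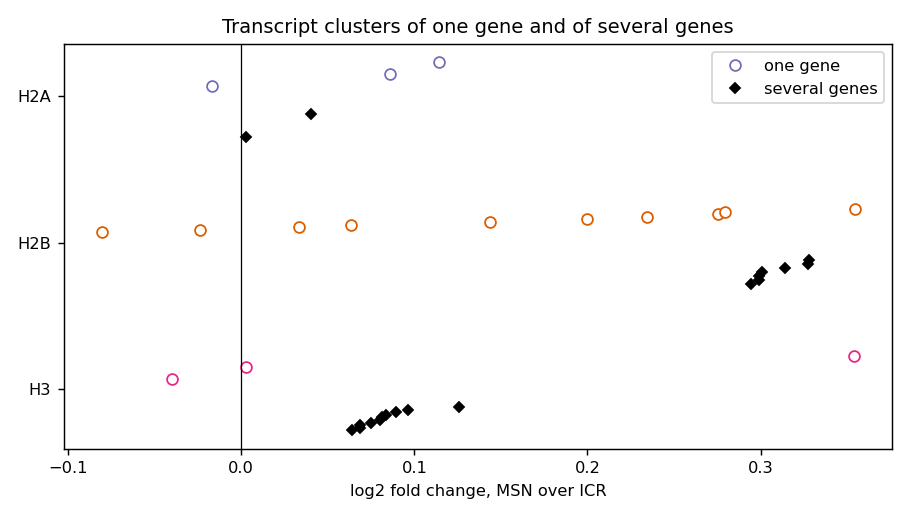
Log2 fold change of MSN over ICR for clusters with 1 gene (circles) and clusters with several genes (diamonds) of H2A, H2B and H3, 1 symbol per cluster, offset vertically so that none is hidden. The several-gene clusters lie at 0.29 to 0.33 for H2B, at 0.064 to 0.13 for H3 and at 0.0029 and 0.040 for H2A.

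For the H4 genes, which complete the nucleosome core, the 7 single-gene clusters had fold changes from -1.68 to 0.076 with a median of -0.39. Of these, 4 were called lower in MSN mice, against 0.474% of all clusters. The strains overlapped in all 7. Their median SD on the log2 scale was 0.085 in MSN mice and 0.20 in ICR mice. The 5 clusters that list several H4 genes had fold changes of -0.99 to -0.93, and all 5 were called lower. The strains overlapped in all 5, with a median SD on the log2 scale of 0.14 in MSN mice and 0.56 in ICR mice. These clusters list genes in common and are not independent.

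Among the 10 somatic variants 1 was called, Macroh2a2. Macroh2a2 encodes macroH2A2, a variant with a large extra domain that is enriched on the inactive X chromosome and in silent chromatin. It had 992, 1018 and 1112 in MSN mice, against 1117, 1187 and 1266 in ICR mice (lowest, median, highest intensity), and no MSN array reached an ICR array. The mean was 1029 ± 44.0 in MSN mice and 1191 ± 49.7 in ICR mice (SD, n = 6 each), a fold change of -0.21 ± 0.039 (SE). The adjusted p was 0.0238 in limma, and the exact two-sided permutation p was 0.00216, the smallest the design can give. The call was kept in 6 of 7 other settings and was lost when all arrays were brought to one median (adjusted p = 0.103). It was kept without MSN replicate 1 or 6 or ICR replicate 2, 3 or 4 and lost without each of the other arrays, where the adjusted p reached 0.0596.

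The 250 bases before the start of Macroh2a2 (chr10:61783865-61784114, minus strand) held none of the motifs and appear without capitals. Its whole promoter, which includes the 50 bases after the start, held CCAAT once, on the other strand, 31 bases after the start. They were 63.2% G and C, against 40.4% for H2bc8 and a median of 52.4% over all promoters.
Macroh2a2: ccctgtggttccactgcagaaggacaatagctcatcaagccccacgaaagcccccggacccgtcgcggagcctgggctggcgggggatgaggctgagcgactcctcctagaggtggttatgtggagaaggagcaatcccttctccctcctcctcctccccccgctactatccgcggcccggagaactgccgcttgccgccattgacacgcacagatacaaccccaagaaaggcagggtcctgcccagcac

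Macroh2a3, a pseudogene, had 304, 355 and 375 in MSN mice, against 349, 394 and 415 in ICR mice, with a fold change of -0.14 ± 0.057 (SE, adjusted p = 0.301 in limma). Macroh2a1, which encodes the more widely studied macroH2A1, averaged 1800 ± 82.8 in MSN mice and 1780 ± 60.5 in ICR mice (SD, n = 6 each), a fold change of 0.015 ± 0.039 (SE). Macroh2a2 was thus lower while Macroh2a1 did not pass the test, and the difference between these was not tested.

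The remaining somatic variants did not pass the test. H2az1 and H2az2 encode the forms of H2A.Z, a variant found at promoters. H2az1 averaged 2275 ± 69.0 in MSN mice and 2267 ± 113 in ICR mice, and its other cluster had a fold change of 0.023. H2az2 averaged 1678 ± 102 in MSN mice and 1598 ± 64.4 in ICR mice. H2ax encodes H2A.X, which is phosphorylated at DNA breaks, and averaged 511 ± 20.9 in MSN mice and 503 ± 49.6 in ICR mice. H3f3a, one of the genes for H3.3, averaged 358 ± 21.9 in MSN mice and 346 ± 22.4 in ICR mice (SD, n = 6 each). The 6 clusters shared by H3f3a and H3f3b had fold changes from -0.027 to 0.0031.

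H2aj encodes H2A.J, and H1f10 encodes a linker histone that is made outside of DNA replication. H2aj averaged 647 ± 28.5 in MSN mice and 619 ± 33.9 in ICR mice, H1f10 averaged 975 ± 73.4 in MSN mice and 1012 ± 34.8 in ICR mice, and H2aw averaged 2858 ± 172 in MSN mice and 2892 ± 153 in ICR mice (SD, n = 6 each). Over these 10 somatic variants the fold changes ran from -0.21 to 0.068 with a median of 0.010, and adjusted p of the 8 genes outside Macroh2a2 and Macroh2a3 ranged from 0.563 to 0.969 in limma. The sign of the change turned for H2aw when all arrays were brought to one median.

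None of the 11 germline histone genes was called. At an unadjusted p under 0.05, 3 were higher (27.3%) and 1 lower (9.09%), against 5.18% and 7.5% of all clusters. Of these, H2bl1, H2bfm and H2al3 had means of 186, 183 and 112, below the lowest array median of 270.2. Whether they were expressed was not tested. H2bl1, a sperm H2B, had 182, 197 and 213 in MSN mice, against 159, 179 and 188 in ICR mice, with a fold change of 0.16 ± 0.048 (SE, adjusted p = 0.158 in limma). It was called with quantile normalization (adjusted p = 0.0467). H2bc1, the testis H2B on chromosome 13, had 289, 299 and 317 in MSN mice, against 231, 268 and 306 in ICR mice, with a fold change of 0.16 ± 0.054 (SE, adjusted p = 0.222 in limma). Its partner on the shared promoter, H2ac1, averaged 849.9 ± 21.5 in MSN mice and 847 ± 52.0 in ICR mice (SD, n = 6 each), a fold change of 0.0059.

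H2al3, an X-linked short H2A, was lower at an unadjusted p under 0.05, with 94.2, 105 and 115 in MSN mice, against 112, 120.0 and 129.9 in ICR mice (lowest, median, highest intensity). Its fold change was -0.19 ± 0.054 (SE, adjusted p = 0.148 in limma), and the strains overlapped. H2bfm, an H2B that is also X-linked, was higher at an unadjusted p under 0.05. It averaged 192 ± 12.7 in MSN mice and 174 ± 17.9 in ICR mice (SD, n = 6 each), with a fold change of 0.14 (adjusted p = 0.358 in limma). The linker histones of sperm and egg, H1f6, H1f7 and H1f8, had fold changes of 0.052, 0.047 and -0.027, and the sign for H1f8 turned with quantile normalization. H2ab1, H2al2a and H2ap had fold changes of 0.012, -0.032 and -0.041, with adjusted p from 0.793 to 0.943 in limma, and the 2 clusters of H2ab1 held identical values. The 12 clusters that list several H2al1 genes had fold changes of 0.022 to 0.047.

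By position, the 20 histone genes on chromosome 13 had a median fold change of 0.13, and 17 of the 20 were above 0. At an unadjusted p under 0.05, 11 of them (55%) were higher and 0 lower, against 5.18% and 7.5% of all clusters. Neighbouring and near-identical genes are not independent, and these shares were not tested. The 1 called was higher, against 0.303% of all clusters. H2bl1, among the 11, and Macroh2a1 lie far from the others, with promoters that begin at 98984516 and 56135501. The others with a promoter searched here lie between 21721794 and 23934486. The 21 genes on other chromosomes had a median of 0.0056, with 2 higher (9.52%) and 3 lower (14.3%) at that level. Of these 21, 1 was called lower, against 0.474% of all clusters. Over all genes 45.3% of fold changes were above 0.

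Genes that supply, process, chaperone or deposit histones were counted beside the H2B genes. Of 45 such genes listed, 43 were measured and none was called, with a median fold change of -0.020. At an unadjusted p under 0.05, 2 were higher and 3 lower, near the shares of all clusters (5.18% and 7.5%). Lsm11, a part of the U7 particle that processes histone transcripts, averaged 554 ± 29.2 in MSN mice and 498 ± 22.2 in ICR mice (SD, n = 6 each), a fold change of 0.15 (adjusted p = 0.139 in limma). Ncbp2, a subunit of the cap-binding complex, had a fold change of 0.093 (adjusted p = 0.333), and Znhit1, a subunit of a complex that deposits H2A.Z, had -0.083 (adjusted p = 0.346). Slbp, which binds the stem-loop of histone transcripts, and Npat, an activator of histone genes, had fold changes of -0.036 and -0.051 (adjusted p = 0.826 and 0.673 in limma) and are named for their roles.

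Since replication-dependent histone genes are transcribed in dividing cells, markers of cycling cells were measured beside them. Of 19 listed, 18 were measured and none was called. Ccna2, the cyclin A2 of S phase, averaged 187 ± 17.1 in MSN mice and 244 ± 43.2 in ICR mice (SD, n = 6 each), a fold change of -0.34 (adjusted p = 0.110 in limma), and Cdc6 and Bub1 had fold changes of -0.16 and -0.13 (adjusted p = 0.190 and 0.261). At an unadjusted p under 0.05, 1 marker was higher and 4 were lower, against 5.18% and 7.5% of all clusters. Of the 18 fold changes, 5 were above 0. The summed intensity of the 18 was 5170 to 5314 in MSN mice and 5338 to 5605 in ICR mice, with the lower sums in MSN mice and a narrow gap. Pcna, with a mean of 1741 in MSN mice and 1826 in ICR mice, weighed most in these sums. The sums were not recomputed with another scaling, and array medians ranged from 270.2 to 298. No marker was at 0, and the dimmest, Bub1, averaged 65.1. Markers of neural precursors summed to 4309 to 4666 in MSN mice and 4394 to 6174 in ICR mice. Neurod1 varied most among them, and averaged 1485 ± 812 in ICR mice and 1124 ± 62.3 in MSN mice (SD, n = 6 each). Of the 6 precursor markers measured, 4 had fold changes above 0 and none was called. Astrocyte markers summed to 8837 to 9597 in MSN mice and 9477 to 10981 in ICR mice. The astrocyte markers were divided, with fold changes of -0.30 for Gfap, -0.23 for Aqp4, -0.070 for Slc1a3 and 0.19 for Aldh1l1, none called. Choroid plexus markers summed to 8567 to 20548 in MSN mice and 7095 to 20372 in ICR mice. Markers of oligodendrocyte precursors, cells that divide in the adult brain, summed to 1924 to 2209 in MSN mice and 1698 to 1919 in ICR mice, with a narrow gap. Of these 3 markers Pdgfra, the brightest, averaged 1147 in MSN mice and 958 in ICR mice and was called higher. Cspg4 and Gpr17 did not pass the test (adjusted p = 0.468 and 0.716 in limma). The part of these cell types in the histone values was not tested.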

How the data were processed

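RNA from hippocampus of 6 MSN and 6 ICR mice was hybridized to Affymetrix Mouse Gene 1.0 ST arrays. The deposited intensity values are on a linear scale, and the authors obtained them with Affymetrix Power Tools 1.12.0, by the PLIER algorithm after GC-bin background correction. The table holds 35556 transcript clusters, of which 23410 have at least one gene. The genome build of the array annotation was not given in the sources used here. Groups and replicate numbers came from the labels.

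After adding 16, log2 was taken, and strain was the single term of a linear model (lmFit and eBayes of limma 3.58.1, under R 4.3.3). Single values were also compared with exact two-sided permutation tests over the 924 splits of 12 arrays, whose smallest p is 0.00216. Where a sentence gives an adjusted p, it is that of limma. The number of arrays limits the precision. Motifs were searched with Python 3.11.15, and figures were drawn with matplotlib 3.10.9.

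All 41 genes were matched to RefSeq by gene ID. Genes were named where they were called or did not overlap, and per class with the 5 smallest p and the highest and lowest mean, together with all somatic variants. Of the supply and cycling lists those called and the 3 smallest p were named. Other genes, among them H2bc9, H2bc18, H2bc21, H2bu2, H2bu1-ps, H2ac1, H2bfm, H1f6, H1f7, H2ab1, H2al2a and H2ap, were named after their values were seen. The genes and lists were chosen with earlier results of these data known.

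Alternatives were a pseudocount of 1 or 64, no transformation, quantile normalization, one median for all arrays, a trended and robust eBayes fit, bright clusters alone (mean above the median), all single-gene clusters, replicate number as block, and each array omitted. Settings counted beside a gene leave out the block and all single-gene clusters. Protein sequences were not used here.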

Additional observations from a re-analysis of the deposited data

Results flagged for a closer look

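A group of 6 arrays was examined for each gene and strain, 82 groups in all, by Dixon's test at 95%, and a single array stood far from the others in 8 of them. Chance alone places about 1 in 20 groups in this class, and 2 of the 8 concerned ICR replicate 2. In H1f2, MSN replicate 1 was the highest MSN array at 1254, with the next at 1007. In Macroh2a2, MSN replicate 1 was highest at 1112, with the next at 1034, and still lay below every ICR array. In H2bc3, ICR replicate 2 was the highest ICR array at 707, with the next at 590.5, and in H1f6 it was highest at 199, with the next at 174. H1f8 was lowest in replicate 5 of each strain, at 82.9 in MSN mice and 88.7 in ICR mice, with the next at 108 and 109.9. H2az1 was highest in MSN replicate 5 at 2406, with the next at 2275, and in ICR replicate 3 at 2489, with the next at 2279.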

How the results depend on the processing

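The number of histone genes called higher in MSN mice was 1 on the main scale. It was 0 on untransformed intensities, 2 with a pseudocount of 64, 4 with quantile normalization, 2 when scaled to the same median, 3 with trend and robust options and 2 among bright clusters, where H2bc8 is too dim to be tested. The genes added were H1f2, H2bc3 and H2bl1. The number called lower was 0 when scaled to the same median and 1 in the other unblocked settings. Among bright clusters 5 genes were higher and 1 lower at an unadjusted p under 0.05. Leaving out one array gave 0 to 3 genes called higher and 0 to 1 called lower. Genes without overlap and higher in MSN mice numbered 3 with quantile normalization and 2 when scaled to the same median, where 0 were lower, and 1 to 6 higher and 1 to 2 lower without one array. The median of the variants was 0.037 when scaled to the same median, and the other class medians moved by less than the SD between arrays. Without one array the H2A median still ranged from 0.050 (ICR replicate 5) to 0.13 (ICR replicate 2). The H3 median ranged from -0.050 (MSN replicate 6) to 0.068 (MSN replicate 1) and that of the variants from -0.0024 (ICR replicate 6) to 0.019 (ICR replicate 3), so both included 0. The 6 H2B genes of chromosome 13 were all higher at an unadjusted p under 0.05 in every setting and without any array, except among bright clusters, which held 4 of them.

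The sign turned for H3c7 with a pseudocount of 1 (-0.0034), for H1f8 with quantile normalization (0.0099), for H2ac4 with quantile normalization (0.012) and scaling to the same median (0.0057), which also turned it for H2bu2 (0.0018) and H2aw (0.0090). Without one array the fold change ranged from -0.050 to 0.068 for H3c7, -0.081 to 0.038 for H1f8, -0.13 to 0.043 for H2ac4, -0.045 to 0.0093 for H2bu2, -0.037 to 0.0096 for H2aw, -0.016 to 0.041 for H2ab1, -0.018 to 0.033 for H2ac1, -0.013 to 0.069 for H2ax and -0.011 to 0.033 for H2az1. The cause was not tested.

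With the replicate number as a replicate block, 0 histone genes were called higher and 0 lower (adjusted p = 0.116 for H2bc8 and 0.0782 for Macroh2a2), and calls over all clusters were 15 higher and 27 lower. The labels give no shared origin for equal numbers, deviations from the strain means correlated at -0.126 to 0.125 between same-numbered arrays, and the deviations of 1 of 6 MSN arrays correlated best with its own number. Signal limits the dim genes: 14 of the 41 had a mean below the lowest array median.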
